A study of Homo sapiens with 12 samples.

Results

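The 30 genes described here make, sense, move, store or export cholesterol. They were taken by symbol from a table of read counts for 57730 genes, and all 30 were found in it. By role, 7 belong to the early mevalonate pathway, 12 to squalene and the sterol steps that follow it, 3 to sterol sensing, 4 to sterol traffic and storage, and 4 to sterol efflux and the liver X receptor (LXR) axis. A filter on low counts kept 29 of the 30, and the efflux transporter ABCG1 was the member that did not pass it. A member could pass through a single group in which it was high, so counts below are over the 29 tested and not over all members.

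The cells were LM3, lung-metastatic cells of the human breast cancer line MDA-MB-231, and the question of the series was what ACSL5 does when such tumours spread to the lung. ACSL5 is an acyl-CoA synthetase, which couples long-chain fatty acids to coenzyme A. Poly(A) RNA was sequenced from 4 groups of 3 libraries. The groups were cells with a control short hairpin RNA (shControl), cells with a hairpin against ACSL5 (shACSL5), and both of these cells given palmitic acid (shControl_PA and shACSL5_PA). All of them grew in DMEM medium with serum, which itself carries lipoprotein cholesterol. The dose and duration of palmitic acid, its carrier, the hairpin sequences and whether a group was a single clone were left unstated in the labels, so effects of the fatty acid and of a carrier cannot be told apart. Nor do the labels say that the 3 libraries of a group came from separate cultures; each p-value therefore reflects spread among these libraries, which may be technical.

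Cells build cholesterol from acetyl-CoA through mevalonate, farnesyl diphosphate, squalene and lanosterol. When sterol in the endoplasmic reticulum (ER) falls, the escort protein SCAP carries the transcription factor SREBP2 (gene SREBF2) to the Golgi, where it is cut and set free to switch on genes of synthesis and uptake; when sterol is plentiful, INSIG proteins hold SCAP back. Oxysterols work the other way through LXR, which switches on export pumps and the ubiquitin ligase MYLIP.

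ACSL5 itself checked the labels. Its level, given throughout as CPM (read counts set against the scaled total of the library), was 142, 143 and 145 in shControl against 10.9, 10.3 and 12.5 in shACSL5, and 189, 194 and 190 in shControl_PA against 14.9, 13.3 and 17.6 in shACSL5_PA. The groups with the hairpin lay far below those without it, with a log2 change of -3.68 (SE 0.07, adjusted p = 4.2e-21) without palmitate and -3.65 (SE 0.06, adjusted p = 3.49e-21) with it. Palmitate itself raised ACSL5 by 0.41 (SE 0.05, adjusted p = 1.65e-06) in control cells and by 0.44 (SE 0.09, adjusted p = 0.00103) in knockdown cells. Library totals ran from 16788694 to 21814751 counts, and no library stood apart by its total. VIM (2547 to 4030 CPM), CD44, KRT8, KRT18 and KRT7 marked the cells as a mesenchymal carcinoma line, and the hormone receptor genes ESR1 and PGR stayed at or below 0.439 CPM. The luminal factors FOXA1 (6.22 to 7.90 CPM) and GATA3 (4.89 to 9.44 CPM), listed with them, were expressed at a low level in every library. CD3E, SFTPC and SCGB1A1 were at 0 counts in every library. The summed level of the 5 immune markers ranged over 34.98 to 37.8 CPM for shControl and 35.7 to 37.1 CPM for shControl_PA, and was higher in the knockdown, at 47.9 to 53.2 CPM for shACSL5 and 45.3 to 54.0 CPM for shACSL5_PA. Nearly all of that was CD68, which encodes a lysosomal membrane protein, while the other 4 had medians under 1 CPM. The 5 carcinoma line markers summed to 4921 to 5121 CPM in shControl and to 3495 to 3620 CPM in shACSL5, and with palmitate to 4431 to 4593 CPM and 3373 to 3581 CPM. The part of these markers in the results below was not tested. Since each library is scaled to its own total, less RNA per cell and fewer cells of a kind cannot be told apart.

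**Figure D1:**
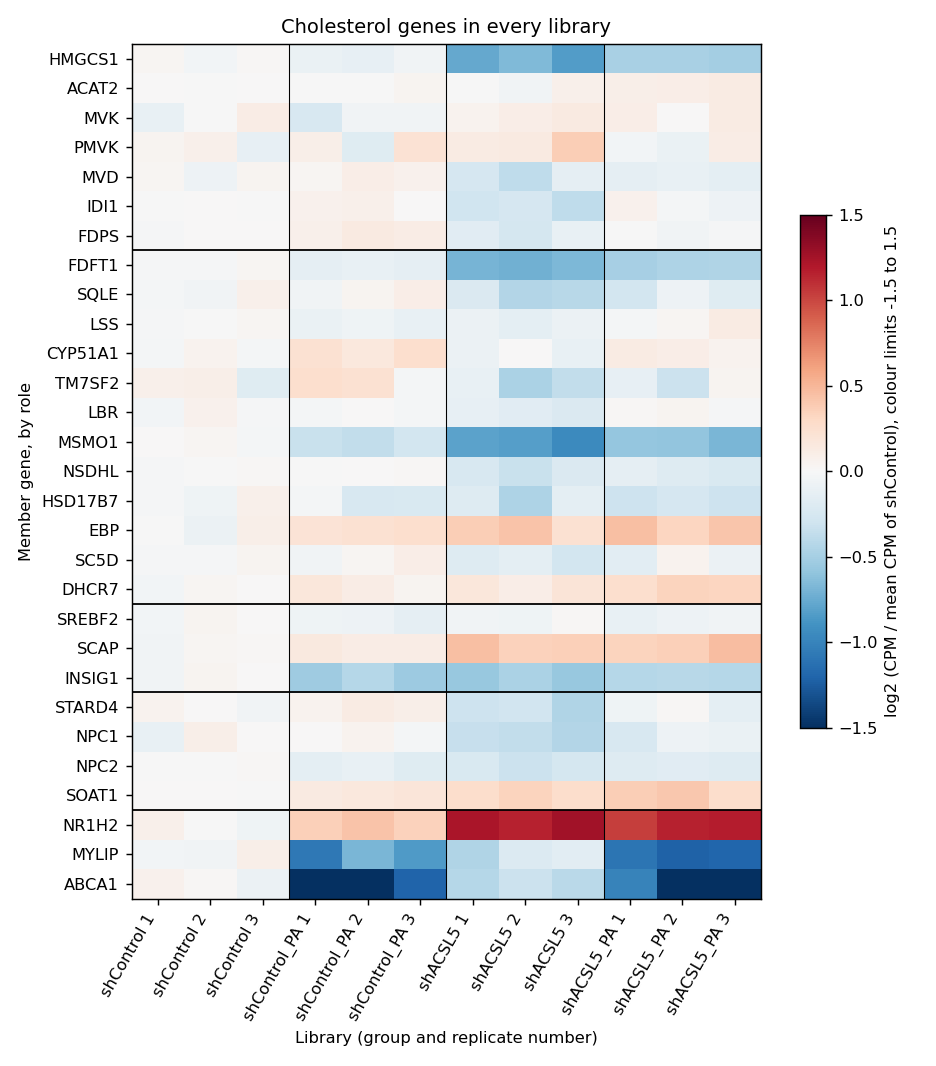
Level of the 29 tested cholesterol genes (rows, grouped by role) in each of the 12 libraries (columns), as log2 of CPM over the mean CPM of shControl, with colours limited to -1.5 to 1.5. The shACSL5 columns are blue for HMGCS1, FDFT1, MSMO1 and INSIG1 and red for NR1H2, and the palmitate columns are blue for MYLIP and ABCA1.

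ACSL5 knockdown without palmitate lowered more cholesterol genes than it raised. Of the 29 tested, 17 fell (58.6%) and 5 rose (17.2%), beside 32.6% and 29.7% of all 14706 genes tested. A gene is called here when its adjusted p is under 0.05, and a called gene is said to rise or fall. In all 22 members were called (75.9%), against a background of 62.3%. The median log2 change of the members was -0.25 and that of all genes -0.02. Among the 19 enzymes of synthesis 12 fell and 2 rose, and their summed level was 2540, 2572 and 2584 CPM in shControl against 2115, 2080 and 2109 CPM in shACSL5. The sum in knockdown cells thus stood at 81.9% of that in control cells, with no overlap between libraries. Most of that fall came from FDFT1, MSMO1 and HMGCS1. Their means were 387, 209 and 212 CPM in shControl against 239, 115 and 126 CPM in shACSL5. The sum is therefore not a measure of the typical enzyme.

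With palmitate present fewer members were called. Between shACSL5_PA and shControl_PA 11 members fell (37.9%) and 7 rose (24.1%), beside 26.1% and 24.4% of all genes, and 18 were called (62.1%) against a background of 50.5%. The share that rose was that of the background. The median member change was -0.06, and 8 of the 19 enzymes fell while 4 rose. The knockdown comparisons with and without palmitate have no library in common. HMGCS1, MVD, FDPS, FDFT1, SQLE, MSMO1, NSDHL, STARD4, NPC1 and MYLIP, 10 genes in all, fell in both, which is 58.8% of those that fell without palmitate and 90.9% of those that fell with it. Over all genes tested these shares were 69.6% and 87%. DHCR7, SCAP, SOAT1 and NR1H2 rose in both, 80% of the members that rose without palmitate and 57.1% of those that rose with it. Over all genes tested the shares of shared rises were 71.1% and 86.3%. LSS fell without palmitate and rose with it.

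Palmitate was compared within each kind of cell. In control cells 6 members rose (20.7%) and 7 fell (24.1%), beside 15.1% and 13.5% of all genes, and 13 were called (44.8%) against a background of 28.7%. The median change was 0.01. This comparison leaned most on scaling: with library sizes alone, without the library factors, 2 members rose and 10 fell, and of all genes called 35.9% rather than 52.8% rose. Leaving out shControl replicate 1 or shControl_PA replicate 2 left 3 members that rose. The enzyme sum was 2547, 2555 and 2576 CPM in shControl_PA, 99.8% of that in shControl.

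In knockdown cells palmitate raised 11 members (37.9%) and lowered 2 (6.90%), beside 12.1% and 9.78% of all genes, and 13 were called (44.8%) against a background of 21.9%. The median change was 0.12, against 0.01 for all genes. Of the 19 enzymes 9 rose and none fell, and the lowest value was that of PMVK at -0.22 (SE 0.10, adjusted p = 0.123). The enzyme sum was 2360, 2363 and 2354 CPM in shACSL5_PA, above every shACSL5 library and below every shControl library, at 92.0% of the shControl mean. FDPS and CYP51A1 rose with palmitate in both kinds of cell, 33.3% and 18.2% of the members that rose in each (29.5% and 37% over all genes). MYLIP and ABCA1 fell in both, 28.6% of the members that fell in control cells and 100% of the 2 that fell in knockdown cells (32.6% and 45.1% over all genes). FDFT1 and MSMO1 fell in control cells and rose in knockdown cells. The palmitate comparison in knockdown cells and the knockdown comparison without palmitate share the shACSL5 libraries, so their opposite signs are not independent of each other.

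The difference between the palmitate responses, knockdown cells minus control cells, was itself tested as an interaction term. It was positive and called for 9 members (31.0%) and negative and called for 1 (3.45%), beside 7.15% and 7.39% of all genes, and 10 were called (34.5%) against a background of 14.5%. The positive ones were HMGCS1, IDI1, FDFT1, LSS, LBR, MSMO1, INSIG1, NPC1 and NPC2, and the negative one was NR1H2. Over all genes the share of interaction calls that were positive was 49.2%, and 59.9% with library sizes alone, while the members gave 10 positive and 1 negative call under that scaling.

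**Figure D2:**
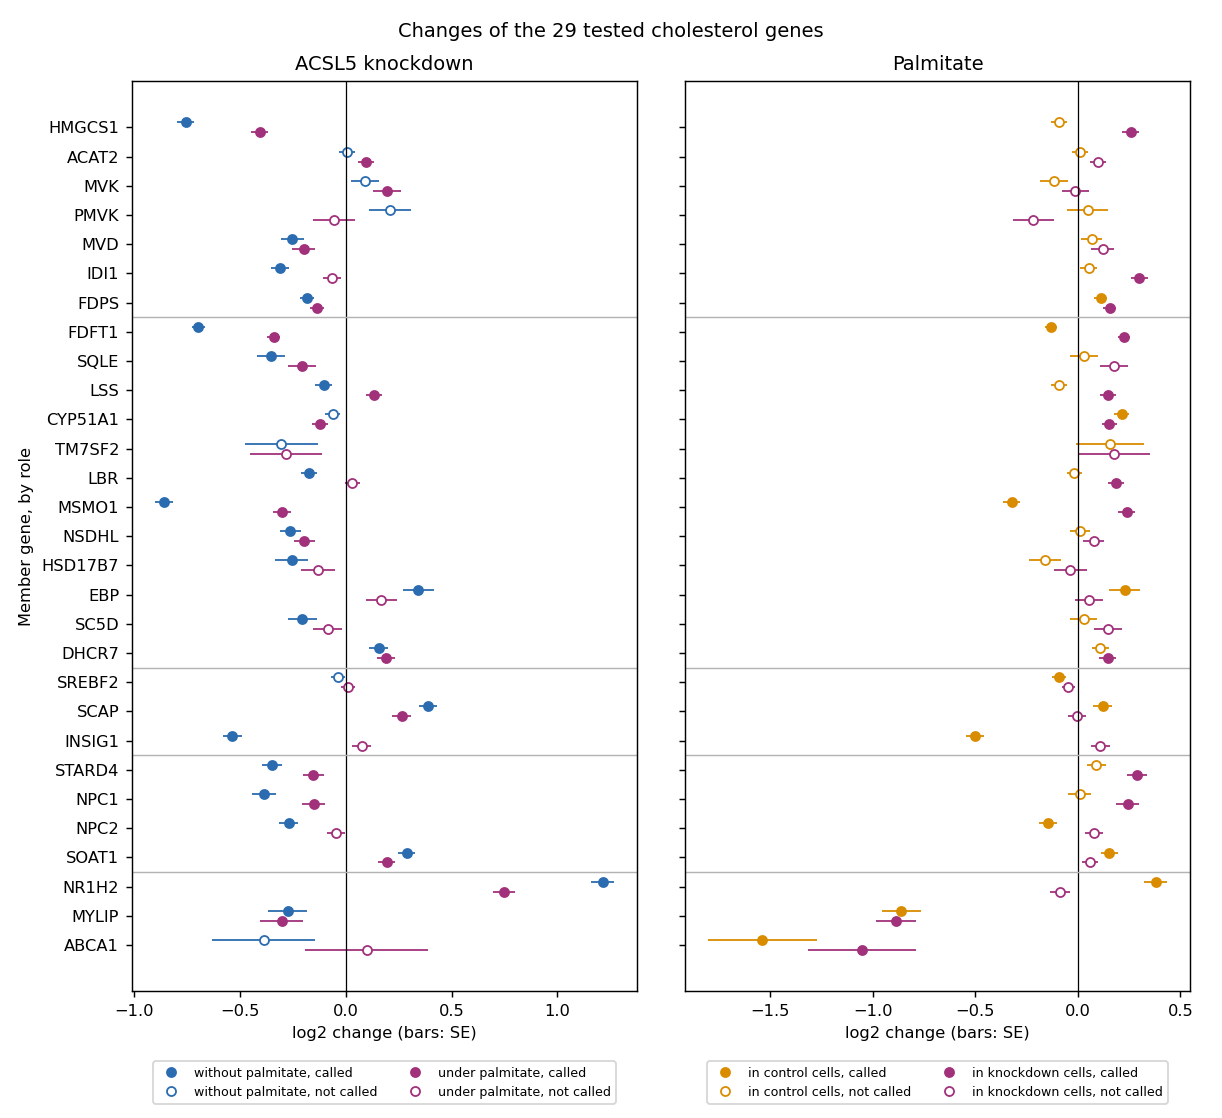
Log2 change (x axis, bars are 1 SE) of each of the 29 tested cholesterol genes (y axis, by role) with ACSL5 knockdown, left, and with palmitate, right, each in the 2 settings given by colour; filled points passed the test and open points did not. MSMO1, HMGCS1 and FDFT1 lie furthest left with the knockdown and NR1H2 furthest right at 1.21, while MYLIP and ABCA1 lie furthest left with palmitate in both kinds of cell.

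Levels differed widely between members before any treatment. Per kilobase of exon, FDPS was the highest in shControl at 104 ± 1.38 CPM per kilobase (SD, n = 3). It was followed by CYP51A1 at 78.6 ± 2.81, FDFT1 at 74.4 ± 1.47 and MSMO1 at 72.3 ± 1.41, which lie within about the spread of their neighbours. These 4 also led when the longest transcript was used for the length. SREBF2 stood at 48.5 ± 1.34, HMGCS1 at 45.1 ± 1.14 and INSIG1 at 34.9 ± 1.24. The lowest were the sterol reductase gene TM7SF2 at 1.42 ± 0.15 and the export pump ABCA1 at 0.321 ± 0.0177, and ABCG1 at 0.0492 ± 0.0697 was at the edge of detection. Of the reductases TM7SF2 and LBR, which serve the same sterol step, LBR at 32.0 ± 1.18 CPM per kilobase was the abundant one.

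**Figure D3:**
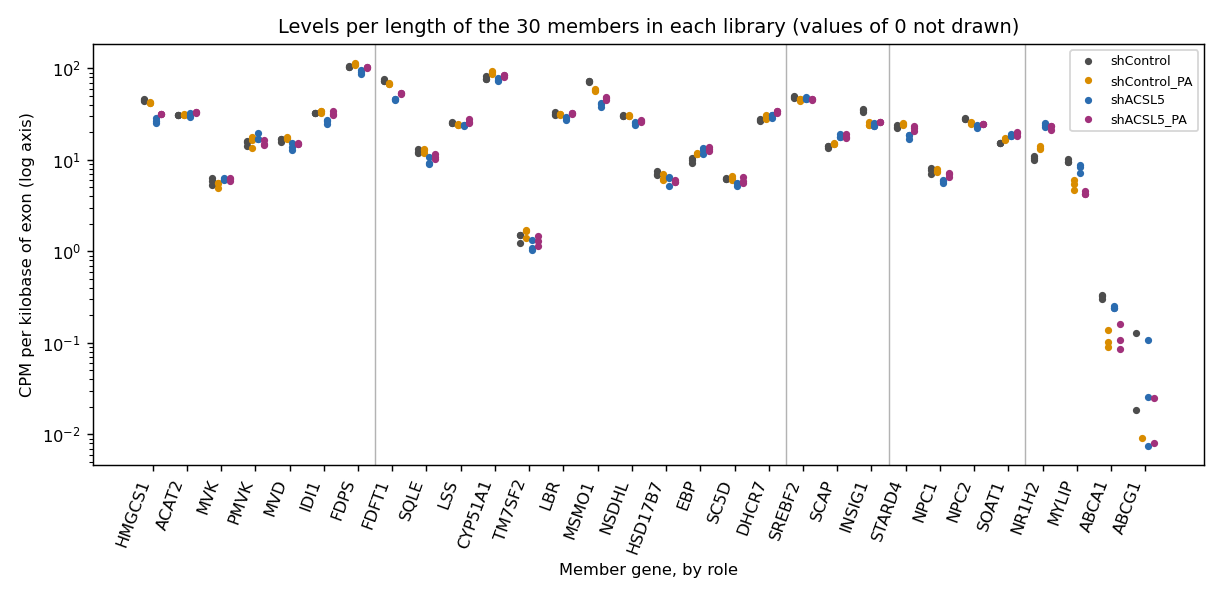
Level per kilobase of exon (y axis, CPM per kilobase, log axis) of the 30 members in each library, coloured by group and ordered by role, with values of 0 not drawn. FDPS, CYP51A1, FDFT1 and MSMO1 lead with shControl means of 72.3 to 104, and ABCA1 at 0.321 and ABCG1 at 0.0492 are the lowest.

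In the early mevalonate pathway the knockdown lowered 4 of 7 enzymes without palmitate and raised none. The share called, 57.1%, was no higher than the 62.3% over all genes. HMGCS1 (ENSG00000112972, GRCh38 chromosome 5, 43289395 to 43313512, minus strand), which condenses acetyl-CoA with acetoacetyl-CoA into HMG-CoA, had the largest change. Its level was 216, 206 and 214 CPM in shControl, 125, 134 and 119 CPM in shACSL5, 197, 195 and 204 CPM in shControl_PA and 151, 151 and 149 CPM in shACSL5_PA. Every knockdown library lay below every control library, and the palmitate-treated knockdown libraries lay between the 2. HMGCS1 fell by 0.75 on the log2 scale (SE 0.04, adjusted p = 1.83e-13) with the knockdown, to 59.4% of control, and changed by -0.40 (SE 0.04, adjusted p = 1.32e-08) under palmitate. Palmitate raised it by 0.26 (SE 0.04, adjusted p = 7.12e-05) in knockdown cells, while its change in control cells was -0.09 (SE 0.04, adjusted p = 0.084), which passed with library sizes alone (-0.14, adjusted p = 0.00982). The interaction was 0.35 (SE 0.06, adjusted p = 0.000196). An antisense transcript, AC114947.2, overlaps 14.95% of the exon bases of HMGCS1 but had at most 21 counts in a library.

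IDI1, which interconverts the pair of isoprene building blocks, shared the fall with the knockdown at smaller size, but under palmitate its knockdown and control libraries overlapped. It stood at 140, 142 and 141 CPM in shControl, 115, 118 and 108 CPM in shACSL5, 148, 149 and 142 CPM in shControl_PA and 148, 138 and 134 CPM in shACSL5_PA. Only the untreated knockdown libraries stood apart, below the other 9. IDI1 fell by 0.31 (SE 0.04, adjusted p = 1.19e-06) with the knockdown and rose by 0.30 (SE 0.04, adjusted p = 2.16e-05) with palmitate in knockdown cells, with an interaction of 0.25 (SE 0.06, adjusted p = 0.00667). Under palmitate its knockdown change was -0.06 (SE 0.04, adjusted p = 0.227).

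FDPS, the farnesyl diphosphate synthase, also fell with the knockdown and rose with palmitate, but by less and in both kinds of cell. Its level was 382, 390 and 391 CPM in shControl, 344, 324 and 358 CPM in shACSL5, 410, 425 and 420 CPM in shControl_PA and 386, 373 and 382 CPM in shACSL5_PA. The 2 knockdown comparisons gave -0.18 and -0.14, palmitate gave 0.11 in control cells and 0.15 in knockdown cells, and the interaction of 0.04 (SE 0.05, adjusted p = 0.591) did not pass. MVD, the mevalonate diphosphate decarboxylase, fell by 0.25 (SE 0.05, adjusted p = 0.000334) without palmitate and by 0.20 (SE 0.05, adjusted p = 0.00366) with it, and did not pass in either palmitate comparison. RUSC1-AS1 overlaps 18.6% of the exon bases of FDPS on the other strand, with at most 137 counts.

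The remaining early enzymes moved little. The mevalonate kinase MVK was at 31.9, 36.4 and 36.5 CPM in shControl_PA and at 40.6, 38.1 and 41.3 CPM in shACSL5_PA. These libraries did not overlap, and the rise was 0.20 (SE 0.07, adjusted p = 0.0201). ACAT2, the cytosolic acetoacetyl-CoA thiolase, rose by 0.10 (SE 0.04, adjusted p = 0.0428) in that comparison and passed in no other. TCP1, a chaperonin gene of up to 12891 counts, overlaps 9.24% of the exon bases of ACAT2 on the other strand, and without the strand setting of the counting their reads cannot be told apart. In the annotation used here 67.6% of the 50-base windows of ACAT2 also lie in other genes, chiefly SOD2-OT1. Of the 3 annotated genes that overlap exons of ACAT2, TCP1 alone was in the table of counts. The phosphomevalonate kinase PMVK passed in none of the 5 comparisons, with changes of -0.27 to 0.21.

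Several of these smaller calls depended on 1 library. The rise of MVK under palmitate no longer passed without shControl_PA replicate 1, shACSL5_PA replicate 1 or shACSL5_PA replicate 3 (0.13 to 0.19, adjusted p = 0.059 to 0.143). That of ACAT2 was lost without any of 8 of the 12 libraries (adjusted p = 0.0512 to 0.134): shControl replicates 2 and 3, shACSL5 replicate 1, shControl_PA replicates 1 and 2, and all shACSL5_PA replicates. It was also lost without the low-count filter (0.10, adjusted p = 0.0826). The rise of FDPS with palmitate in control cells did not pass without shControl replicate 1 or shControl_PA replicate 2 (0.10, adjusted p = 0.0537 to 0.0616), nor with library sizes alone (0.06, adjusted p = 0.156). Conversely PMVK passed with the knockdown without shControl_PA replicate 2 (0.21, adjusted p = 0.0464) and with size factors by the DESeq2 method (0.23, adjusted p = 0.0457). With shACSL5 replicate 3 left out, ACAT2 (0.14, adjusted p = 0.0174) and MVD (0.18, adjusted p = 0.0216) passed with palmitate in knockdown cells.

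Among the 12 genes of squalene and the sterol steps, 8 fell and 2 rose with the knockdown, and 6 rose and none fell with palmitate in knockdown cells. Beside the 66.7% and 16.7% with the knockdown stand 32.6% and 29.7% of all genes, and beside the 50% that rose with palmitate stands 12.1%. FDFT1 (ENSG00000079459, GRCh38 chromosome 8, 11795573 to 11839309, plus strand) encodes squalene synthase, the first enzyme committed to sterols. It stood at 384, 381 and 396 CPM in shControl, 238, 236 and 243 CPM in shACSL5, 351, 357 and 353 CPM in shControl_PA and 274, 281 and 283 CPM in shACSL5_PA. The 4 groups did not overlap at all, in the order shControl, shControl_PA, shACSL5_PA, shACSL5 from high to low. FDFT1 fell by 0.69 (SE 0.03, adjusted p = 5.05e-15) with the knockdown and by 0.34 (SE 0.03, adjusted p = 2.17e-09) under palmitate. Palmitate lowered it by 0.13 (SE 0.03, adjusted p = 0.00179) in control cells and raised it by 0.23 (SE 0.03, adjusted p = 9.9e-06) in knockdown cells, and the interaction was 0.35 (SE 0.04, adjusted p = 5.02e-06).

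MSMO1 (ENSG00000052802, GRCh38 chromosome 4, 165327623 to 165343160, plus strand), an oxygenase that acts after CYP51A1 in the removal of methyl groups from the sterol ring, fell furthest of all members with the knockdown. Its level was 210, 213 and 205 CPM in shControl, 120, 118 and 108 CPM in shACSL5, 166, 162 and 173 CPM in shControl_PA and 140, 139 and 130 CPM in shACSL5_PA. These groups too did not overlap and had the order seen for FDFT1. MSMO1 fell by 0.86 (SE 0.04, adjusted p = 5.98e-14) with the knockdown, to 55.2% of control, and by 0.30 (SE 0.04, adjusted p = 3.4e-06) under palmitate. Palmitate lowered it by 0.32 (SE 0.04, adjusted p = 3.65e-06) in control cells and raised it by 0.24 (SE 0.04, adjusted p = 0.000362) in knockdown cells. The interaction was 0.56 (SE 0.06, adjusted p = 1.48e-06).

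The enzymes on either side of lanosterol were less uniform. LSS, the lanosterol synthase, was at 184, 185 and 190 CPM in shControl, 176, 169 and 176 CPM in shACSL5, 174, 178 and 173 CPM in shControl_PA and 183, 190 and 203 CPM in shACSL5_PA. Each treatment alone came with lower levels than in shControl, and the libraries with both treatments lay above those of either alone. LSS fell by 0.10 (SE 0.04, adjusted p = 0.022) with the knockdown and rose by 0.14 (SE 0.04, adjusted p = 0.00497) with it under palmitate, and the interaction was 0.24 (SE 0.05, adjusted p = 0.00414). The fall did not pass without shControl replicate 3 or shACSL5 replicate 2 (-0.09, adjusted p = 0.0846 to 0.0879), with size factors by the DESeq2 method in edgeR (-0.08, adjusted p = 0.0658) or in DESeq2 (-0.08, adjusted p = 0.0641). The rise of 0.15 with palmitate in knockdown cells did not pass without shACSL5_PA replicate 3 (0.11, adjusted p = 0.0506), and without the same library the fall with palmitate in control cells passed (-0.09, adjusted p = 0.0495), as it did with library sizes alone (-0.14, adjusted p = 0.00657).

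CYP51A1, the lanosterol demethylase, rose with palmitate in control and in knockdown cells. It stood at 275, 293 and 276 CPM in shControl, 266, 283 and 261 CPM in shACSL5, 331, 314 and 335 CPM in shControl_PA and 306.7, 302 and 292 CPM in shACSL5_PA. Control and knockdown libraries overlapped without palmitate, and treated libraries lay above untreated ones in each kind of cell. Palmitate raised CYP51A1 by 0.21 (SE 0.04, adjusted p = 0.000134) in control cells and by 0.15 (SE 0.04, adjusted p = 0.00441) in knockdown cells, an interaction of -0.06 (SE 0.05, adjusted p = 0.495). With the knockdown its change was -0.06 (SE 0.04, adjusted p = 0.157) without palmitate and -0.12 (SE 0.04, adjusted p = 0.00825) with it. The first of these passed without shACSL5 replicate 2 (-0.10, adjusted p = 0.0365) and with library sizes alone (-0.09, adjusted p = 0.0482). In the annotation used here 88.9% of the 50-base windows of CYP51A1 also lie in the readthrough transcript AC000120.2. Of the 3 annotated genes that overlap its exons, CYP51A1-AS1 alone was in the table of counts, with at most 4 counts in a library.

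LBR, a sterol reductase that also anchors lamins at the nuclear envelope, was at 163, 175 and 166 CPM in shControl, 154, 149 and 145 CPM in shACSL5, 165, 169 and 164 CPM in shControl_PA and 170, 173 and 166 CPM in shACSL5_PA. As with IDI1, the untreated knockdown libraries were the ones below all others. LBR fell by 0.17 (SE 0.04, adjusted p = 0.000391) with the knockdown and rose by 0.19 (SE 0.04, adjusted p = 0.000905) with palmitate in knockdown cells, with an interaction of 0.20 (SE 0.05, adjusted p = 0.0112). Its counterpart TM7SF2, with 59 to 106 counts per library, passed in no comparison; its changes ran from -0.30 to 0.18 with SEs of 0.17 in the 4 comparisons between groups, so smaller differences were not detectable at this depth.

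Of the other sterol enzymes, SQLE (squalene epoxidase), NSDHL (the decarboxylating sterol dehydrogenase), HSD17B7 (the reductase that follows it) and SC5D (a sterol desaturase) fell with the knockdown by 0.35, 0.26, 0.25 and 0.20 on the log2 scale. SQLE and NSDHL fell under palmitate too, by 0.21 and 0.20, and none of the 4 passed for palmitate in either cell type. HSD17B7 did not pass without shACSL5 replicate 2 (-0.17, adjusted p = 0.0624) and SC5D not without shACSL5 replicate 3 (-0.17, adjusted p = 0.0559). Under palmitate the fall of SQLE was lost without shControl_PA replicate 3 or shACSL5_PA replicate 1 (-0.17 to -0.16, adjusted p = 0.0638 to 0.0814), while its change with palmitate in knockdown cells passed without shACSL5 replicate 1 or shACSL5_PA replicate 1 (0.22 to 0.26, adjusted p = 0.0174 to 0.04) and without the low-count filter (0.18, adjusted p = 0.0306). With palmitate in control cells HSD17B7 passed with library sizes alone (-0.21, adjusted p = 0.0483). HSD17B7 shares 17.3% of its 50-base windows with other genes, chiefly the pseudogene HSD17B7P2, so its counts are uncertain to that extent.

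EBP and DHCR7 were the synthesis enzymes that rose with the knockdown. EBP, the sterol isomerase, was at 24.0, 22.6 and 25.5 CPM in shControl, 31.1, 32.5 and 28.1 CPM in shACSL5, 27.7, 28.3 and 28.6 CPM in shControl_PA and 33.0, 30.02 and 32.0 CPM in shACSL5_PA. The untreated control libraries were the lowest. EBP rose by 0.34 (SE 0.07, adjusted p = 0.000268) with the knockdown and by 0.23 (SE 0.07, adjusted p = 0.0225) with palmitate in control cells. DHCR7, which reduces the last double bond in one branch of the pathway, rose by 0.16 (SE 0.04, adjusted p = 0.003) and 0.19 (SE 0.04, adjusted p = 0.000594) with the knockdown without and with palmitate, and by 0.14 (SE 0.04, adjusted p = 0.0152) with palmitate in knockdown cells.

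The palmitate calls of both were fragile. EBP did not pass in control cells without shControl replicate 1, shControl replicate 2, shControl_PA replicate 2 or shControl_PA replicate 3 (0.19 to 0.23, adjusted p = 0.0527 to 0.11), nor with library sizes alone (0.18, adjusted p = 0.0727). With the knockdown under palmitate EBP stood at 0.17 (adjusted p = 0.0507) and passed without shACSL5 replicate 2, shACSL5 replicate 3 or shACSL5_PA replicate 2 (0.17 to 0.21, adjusted p = 0.0367 to 0.0479), with library sizes alone (0.17, adjusted p = 0.0492) and with size factors by the DESeq2 method (0.18, adjusted p = 0.0417). DHCR7 was lost in knockdown cells without shACSL5 replicate 2 or shACSL5_PA replicate 2 (0.12 to 0.13, adjusted p = 0.0651 to 0.076). In control cells its change of 0.11 (adjusted p = 0.0599) passed without shControl_PA replicate 3 (0.14, adjusted p = 0.0272), with size factors by the DESeq2 method (0.12, adjusted p = 0.0435) and in DESeq2 (0.12, adjusted p = 0.0418).

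**Figure D4:**
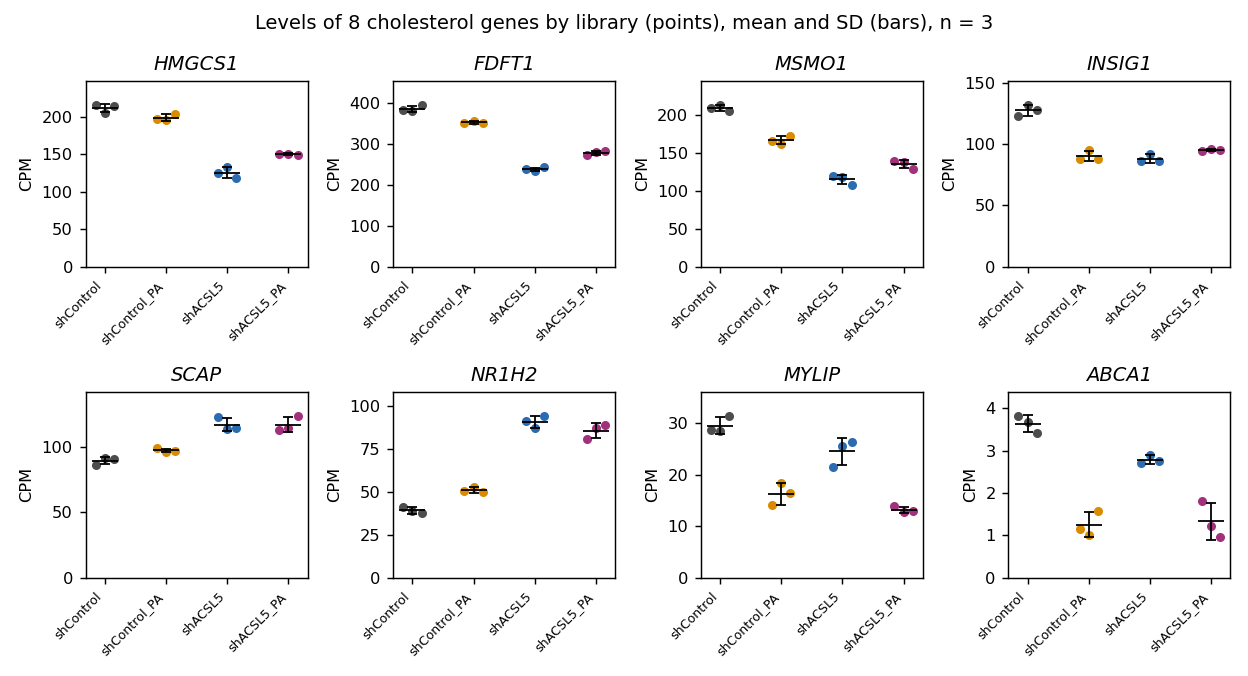
CPM (y axis, from 0) in each library (points) of 8 cholesterol genes in the 4 groups, with mean and SD (bars, n = 3). HMGCS1, FDFT1 and MSMO1 are lowest in shACSL5, INSIG1 is lower in 3 groups than in shControl, SCAP and NR1H2 are highest in both knockdown groups, and MYLIP and ABCA1 are lowest in both palmitate groups.

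The sensing genes went separate ways. INSIG1 (ENSG00000186480, GRCh38 chromosome 7, 155297776 to 155310235, plus strand), the ER anchor that holds SCAP back and is itself a target of SREBP2, was at 123, 132 and 128 CPM in shControl. It was at 86.2, 92.0 and 86.0 CPM in shACSL5, 88.1, 94.8 and 87.4 CPM in shControl_PA and 94.5, 95.8 and 94.8 CPM in shACSL5_PA. Untreated control libraries thus stood above all 9 others, which lay within 86.0 to 95.8 CPM. INSIG1 fell by 0.53 (SE 0.04, adjusted p = 3.53e-10) with the knockdown and by 0.50 (SE 0.04, adjusted p = 1.42e-08) with palmitate in control cells. Both values rest on the same shControl libraries. Where the other treatment was already present, the knockdown gave 0.08 (SE 0.04, adjusted p = 0.161) and palmitate 0.11 (SE 0.04, adjusted p = 0.081). Its interaction of 0.61 (SE 0.06, adjusted p = 7.59e-07) had the highest value among members, and the palmitate change in knockdown cells passed without shACSL5 replicate 2 (0.14, adjusted p = 0.0411).

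SCAP, the escort of SREBP2, rose with the knockdown. Its level was 86.8, 91.5 and 90.8 CPM in shControl, 123, 114 and 115 CPM in shACSL5, 99.2, 96.7 and 96.9 CPM in shControl_PA and 113, 115 and 124 CPM in shACSL5_PA. All 6 knockdown libraries lay above all 6 control libraries. The rise was 0.39 (SE 0.04, adjusted p = 8.34e-08) without palmitate and 0.26 (SE 0.04, adjusted p = 2.97e-05) with it. Palmitate raised SCAP by 0.12 (SE 0.05, adjusted p = 0.0487) in control cells. That call was lost without any one of the shControl or shControl_PA libraries or shACSL5_PA replicate 2 (0.10 to 0.14, adjusted p = 0.0521 to 0.165) and with library sizes alone (0.07, adjusted p = 0.232).

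SREBF2 was abundant per length and did not pass with the knockdown. It stood at 356, 376 and 368 CPM in shControl, 352, 351 and 371 CPM in shACSL5, 351, 347 and 334 CPM in shControl_PA and 339, 347 and 354 CPM in shACSL5_PA. Knockdown and control libraries overlapped with and without palmitate, with changes of 0.01 and -0.03 (SE 0.03 each). A fall of 0.09 (SE 0.03, adjusted p = 0.0366) with palmitate in control cells did not pass without shControl replicate 2, shControl replicate 3, shACSL5 replicate 1, shControl_PA replicate 2 or shControl_PA replicate 3 (-0.10 to -0.07, adjusted p = 0.05 to 0.17). Nor did it pass with size factors by the DESeq2 method (adjusted p = 0.069), in DESeq2 (adjusted p = 0.0525) or without the low-count filter (adjusted p = 0.0688). RNA level says nothing of how much SREBP2 protein was cut and active.

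Sequence before the start of these genes was read from RefSeq (build GRCh38.p14), which held 26 of the 30 genes, and the 250 bases before each RefSeq start were searched on both strands. The letters were TCACNCCAC for a sterol regulatory element, CCAAT for the NF-Y box, TCACGTGA for a palindromic E-box, GGGCGG for the Sp1 box, and a pair of GGTNA letters 5 bases apart for an LXR element, where N is any base. CCAAT occurred in 19 of the 26 members and in 37.0% of all 27305 genes in that table, and GGGCGG in 24 of 26 and in 46.2%. Those 27305 genes were not limited to genes expressed in these cells. Whether the members differ from other expressed genes was not tested. TCACGTGA and TCACNCCAC begin alike, but neither holds the other. TCACNCCAC was found in SREBF2 alone among the 26, against 1.09% of all genes. ABCG1, ACAT2, FDFT1 and SQLE were not among the 26, so they were not searched. Only these exact letters were sought, so sterol elements with other letters would be missed. A match is a description of letters and not of binding. The stretches below lie before the start in RefSeq and in GENCODE. They are shown for HMGCS1, MSMO1 and INSIG1, which were among the members that fell furthest with the knockdown, and for SREBF2 with its sterol letters. They run 5′ to 3′ on the strand of the gene, with matches to the sterol, CCAAT (or its complement ATTGG) and E-box letters in capitals.
HMGCS1 (chr5:43313513-43313662, minus): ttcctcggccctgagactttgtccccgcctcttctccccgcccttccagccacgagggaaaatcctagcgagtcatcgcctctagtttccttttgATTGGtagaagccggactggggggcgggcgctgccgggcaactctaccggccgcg
MSMO1 (chr4:165327473-165327622, plus): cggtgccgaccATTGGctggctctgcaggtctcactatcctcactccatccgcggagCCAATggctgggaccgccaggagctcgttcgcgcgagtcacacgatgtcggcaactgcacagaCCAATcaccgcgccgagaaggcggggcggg
INSIG1 (chr7:155297628-155297775, plus): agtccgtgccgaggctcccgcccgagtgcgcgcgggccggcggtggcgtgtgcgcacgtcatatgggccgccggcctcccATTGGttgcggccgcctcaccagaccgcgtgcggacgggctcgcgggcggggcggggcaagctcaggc
SREBF2 (chr22:41832929-41833078, plus): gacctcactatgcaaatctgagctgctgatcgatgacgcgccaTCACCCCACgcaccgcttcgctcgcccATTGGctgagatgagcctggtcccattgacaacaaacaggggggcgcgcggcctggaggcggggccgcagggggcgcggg

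The E-box letters were found in INSIG1 alone of the 26, against 1.04% of all genes, 56 to 49 bases before its RefSeq start and inside its longer GENCODE model. The site of 30 bases with the E-box in capitals reads as follows.
INSIG1 site (chr7:155297811-155297840, plus): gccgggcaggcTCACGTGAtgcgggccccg

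Genes of sterol traffic and storage fell with the knockdown except for the storage enzyme. STARD4, a soluble carrier of cholesterol between membranes, was at 136, 132 and 126 CPM in shControl, 106, 107 and 96.1 CPM in shACSL5, 136, 143 and 140 CPM in shControl_PA and 126, 133 and 118 CPM in shACSL5_PA. Only the untreated knockdown libraries lay below all others. STARD4 fell by 0.35 (SE 0.05, adjusted p = 1.44e-06) with the knockdown and by 0.15 (SE 0.05, adjusted p = 0.0103) under palmitate, and rose by 0.29 (SE 0.05, adjusted p = 0.00016) with palmitate in knockdown cells. Its interaction of 0.20 (adjusted p = 0.0546) did not pass. It did without shControl replicate 3, shACSL5 replicate 2 or shACSL5_PA replicate 3 (0.22 to 0.24, adjusted p = 0.0198 to 0.0419), with library sizes alone (0.22, adjusted p = 0.0314) and without the low-count filter (0.20, adjusted p = 0.022). The fall under palmitate was lost without shControl_PA replicate 2 or shACSL5_PA replicate 3 (-0.13 to -0.11, adjusted p = 0.0594 to 0.0736).

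NPC1 and NPC2 together release cholesterol from the lysosome, NPC2 in its lumen and NPC1 in its membrane. NPC1 stood at 71.4, 82.1 and 77.6 CPM in shControl, 60.5, 59.7 and 56.7 CPM in shACSL5, 77.3, 80.0 and 75.4 CPM in shControl_PA and 65.1, 72.8 and 71.6 CPM in shACSL5_PA. It fell by 0.39 (SE 0.06, adjusted p = 2.49e-06) with the knockdown and by 0.15 (SE 0.05, adjusted p = 0.0253) under palmitate, and rose by 0.24 (SE 0.06, adjusted p = 0.00291) with palmitate in knockdown cells. NPC2 was at 76.6, 76.5 and 78.3 CPM in shControl, 65.6, 61.9 and 64.4 CPM in shACSL5, 69.95, 71.4 and 68.1 CPM in shControl_PA and 67.3, 68.5 and 67.3 CPM in shACSL5_PA. Both genes were lowest in untreated knockdown cells. NPC2 fell by 0.27 (SE 0.04, adjusted p = 1.42e-05) with the knockdown and by 0.14 (SE 0.04, adjusted p = 0.0168) with palmitate in control cells, with an interaction of 0.22 (SE 0.06, adjusted p = 0.0178).

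The interaction of NPC1, at 0.23 (SE 0.08, adjusted p = 0.0469), held the least firmly of the 10 called. It was lost when any of 9 of the 12 libraries was left out (0.19 to 0.25, adjusted p = 0.0596 to 0.149), the exceptions being shControl replicate 1, shControl_PA replicate 2 and shACSL5_PA replicate 1. It was also lost with size factors by the DESeq2 method (0.22, adjusted p = 0.063) and in DESeq2 (0.22, adjusted p = 0.0669). The fall of NPC1 under palmitate did not pass without shControl_PA replicate 1, shControl_PA replicate 2 or shACSL5_PA replicate 1 (-0.15 to -0.10, adjusted p = 0.0538 to 0.164). The palmitate fall of NPC2 did not pass without shControl replicate 3 or shControl_PA replicate 3 (-0.13 to -0.12, adjusted p = 0.0613 to 0.0784) or without the low-count filter (-0.14, adjusted p = 0.0559). RMC1 overlaps 5.98% of the exon bases of NPC1, and ISCA2 overlaps 3.75% of those of NPC2, on the other strand.

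SOAT1, the ER enzyme that esterifies cholesterol for storage in droplets, moved opposite to the carriers. It was at 107, 107 and 106 CPM in shControl, 129, 134 and 128 CPM in shACSL5, 117, 119 and 121 CPM in shControl_PA and 137, 141 and 129 CPM in shACSL5_PA. Its groups were lowest in untreated control cells, and both knockdown groups lay above both control groups. SOAT1 rose by 0.29 (SE 0.04, adjusted p = 1.61e-06) and 0.19 (SE 0.04, adjusted p = 0.000296) with the knockdown without and with palmitate. With palmitate in control cells it rose by 0.15 (SE 0.04, adjusted p = 0.00644), which did not pass with library sizes alone (0.11, adjusted p = 0.0583).

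In the efflux and LXR axis the receptor and its targets parted. NR1H2 (ENSG00000131408, GRCh38 chromosome 19, 50329653 to 50382982, plus strand) encodes LXR beta, the broadly expressed oxysterol receptor. It stood at 41.1, 38.9 and 37.4 CPM in shControl, 91.1, 86.9 and 94.1 CPM in shACSL5, 50.2, 52.7 and 49.7 CPM in shControl_PA and 80.4, 87.2 and 88.8 CPM in shACSL5_PA. Knockdown libraries were far above control libraries, and shControl_PA lay between. NR1H2 rose by 1.21 (SE 0.05, adjusted p = 1.05e-14) with the knockdown, to 232% of control, the highest value among members, and by 0.75 (SE 0.05, adjusted p = 7.06e-11) under palmitate. Palmitate raised it by 0.38 (SE 0.06, adjusted p = 2.72e-05) in control cells, and its change in knockdown cells was -0.09 (SE 0.05, adjusted p = 0.238). The interaction was -0.47 (SE 0.08, adjusted p = 0.000225), the negative one among the members.

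MYLIP (ENSG00000007944, GRCh38 chromosome 6, 16129125 to 16148248, plus strand), the ubiquitin ligase that LXR induces to limit lipoprotein uptake, fell with palmitate whatever the hairpin. Its level was 28.8, 28.4 and 31.4 CPM in shControl, 21.6, 25.6 and 26.4 CPM in shACSL5, 14.1, 18.4 and 16.4 CPM in shControl_PA and 13.9, 12.8 and 13.0 CPM in shACSL5_PA. All 6 treated libraries lay below all 6 untreated ones. Palmitate lowered MYLIP by 0.86 (SE 0.10, adjusted p = 4.04e-07) in control cells and by 0.89 (SE 0.10, adjusted p = 8.27e-07) in knockdown cells, to 55.1% and 53.9%, with an interaction of -0.03 (SE 0.14, adjusted p = 0.93). The knockdown changes were smaller, at -0.27 (SE 0.09, adjusted p = 0.0118) without palmitate and -0.30 (SE 0.10, adjusted p = 0.0174) with it. The first was lost without shControl replicate 3 or shACSL5 replicate 1 (-0.23 to -0.18, adjusted p = 0.063 to 0.105), and the second without shControl_PA replicate 2 or shACSL5_PA replicate 2 (-0.28 to -0.20, adjusted p = 0.0557 to 0.144).

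ABCA1, the pump that loads cellular cholesterol onto apolipoprotein A-I, was scarce, and its values in every library are given because they were seen to move with palmitate. It had 67, 67 and 65 counts in shControl, 59, 49 and 52 in shACSL5, 21, 18 and 29 in shControl_PA and 37, 24 and 18 in shACSL5_PA. Scaled, that was 3.64 ± 0.20, 2.78 ± 0.11, 1.25 ± 0.30 and 1.33 ± 0.43 CPM (SD, n = 3) in the same order. Treated libraries were below untreated ones in each kind of cell. ABCA1 fell by 1.54 (SE 0.27, adjusted p = 0.000127) with palmitate in control cells, to 34.3%, and by 1.05 (SE 0.26, adjusted p = 0.00592) in knockdown cells, to 47.8%. The difference between these, 0.49 (SE 0.38, adjusted p = 0.437), did not pass, and the knockdown did not pass either, at -0.39 (SE 0.24, adjusted p = 0.169) without palmitate and 0.10 (SE 0.29, adjusted p = 0.802) under it. ABCG1, the partner pump that exports sterol to lipoprotein particles, had 2, 0 and 15 counts in shControl, 1, 11 and 3 in shACSL5, 0, 1 and 0 in shControl_PA and 1, 3 and 0 in shACSL5_PA. Its libraries spread over nearly the whole range within a group, so no change is given for it.

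Between 69 and 55 bases before its RefSeq start, inside its longer GENCODE model, ABCA1 held the LXR letters on the opposite strand. They were found in 2 of the 26 members and in 0.67% of all genes. The other member was HMGCS1, which rose with palmitate in knockdown cells and was not called in control cells. MYLIP held no match. The site of 30 bases is shown for ABCA1, which fell with palmitate in both kinds of cell, as MYLIP did without these letters. Both GGTNA letters and the bases between them are in capitals.
ABCA1 site (chr9:104928203-104928232, minus): acaggcttTGACCGATAGTAACCtctgcgc

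Around the members, 79 further genes in 8 lists of the pathway were counted, of which 71 were tested. With the knockdown 19 rose and 33 fell (26.8% and 46.5%, beside 29.7% and 32.6% of all genes), and under palmitate 19 rose and 32 fell (26.8% and 45.1%, beside 24.4% and 26.1%). The rises were thus near the background. Palmitate raised 10 and lowered 13 in control cells (14.1% and 18.3%, beside 15.1% and 13.5%), and raised 12 and lowered 8 in knockdown cells (16.9% and 11.3%, beside 12.1% and 9.78%), all of which lay near the shares of all genes. The medians of these 71 were -0.12, -0.08, -0.02 and 0.03 in the same order of comparisons, beside -0.0196, -0.00285, -0.00263 and 0.0116 for all genes. The interaction was positive and called for 12 of the 71 (16.9%, beside 7.15% of all genes). It was negative and called for 5 (7.04%, beside 7.39%). Positive interactions thus exceeded the share of all genes outside the members too.

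In uptake and lysosomal release, 8 of 11 genes fell and 3 rose with the knockdown (72.7% and 27.3%, beside 32.6% and 29.7% of all genes). LIPA, the acid lipase that frees cholesterol from lipoprotein esters, fell by 1.35 (SE 0.05, adjusted p = 4.97e-16), from 105 ± 4.45 to 41.2 ± 2.13 CPM (SD, n = 3), and by 1.05 (SE 0.05, adjusted p = 7.09e-14) under palmitate. The endocytic receptor LRP1 fell by 1.20 and 0.98 in the same comparisons, and with palmitate in control cells by 0.62. VLDLR, a lipoprotein receptor, fell by 1.26 (SE 0.08, adjusted p = 1.6e-12) with the knockdown, from 56.9 ± 1.07 to 23.95 ± 3.63 CPM (SD, n = 3), and by 0.80 under palmitate. With palmitate VLDLR rose by 0.28 in control cells and by 0.74 (SE 0.08, adjusted p = 4.09e-07) in knockdown cells, and LIPA rose by 0.39 in the latter. In intracellular sterol transport 10 of 14 tested genes fell in each knockdown comparison (71.4%, beside 32.6% of all genes without palmitate and 26.1% with it). OSBPL2, an oxysterol binding protein, fell by 1.08 and 0.66, and GRAMD1C, of a family that carries sterol from the plasma membrane to the ER, by 1.41 and 1.03.

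Of the 10 sensing and turnover genes 3 rose and 5 fell with the knockdown (30% and 50%), the rises at the share of all genes. INSIG2, the relative of INSIG1, fell by 1.28 (SE 0.09, adjusted p = 2.2e-11) and by 1.00 under palmitate, and rose by 0.52 with palmitate in knockdown cells. RNF145, an ER ubiquitin ligase, fell with palmitate by 0.42 in control cells and by 0.60 in knockdown cells, as did SREBF1 by 0.36 in control cells. In ester storage and hydrolysis 2 of 4 listed genes were tested, and both rose with the knockdown (100%, beside 29.7% of all genes). NCEH1, a cholesterol ester hydrolase, rose by 0.72 (SE 0.05) and LIPE by 0.93 (SE 0.29). LIPE was scarce, at a mean of 1.56 CPM in shControl and 2.97 CPM in shACSL5. Under palmitate NCEH1 alone of the 2 was called, at 0.81 (SE 0.05), which is 50% beside 24.4% of all genes.

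In acetyl-CoA supply 2 of 6 rose and 3 fell with the knockdown (33.3% and 50%, beside 29.7% and 32.6% of all genes). ACSS2, which makes acetyl-CoA from acetate, fell by 0.88 with the knockdown, fell by 0.24 with palmitate in control cells and rose by 0.33 in knockdown cells, an interaction of 0.57 (SE 0.11, adjusted p = 0.00114). ACLY, which makes it from citrate, fell by 0.31 with the knockdown and rose by 0.16 with palmitate in knockdown cells, while the mitochondrial thiolase ACAT1 and the acetoacetate-activating enzyme AACS rose by 0.66 and 0.37 with the knockdown. In the isoprenoid branches 3 of 12 rose and 1 fell with the knockdown, so that 33.3% were called against 62.3% of all genes. The prenyltransferase subunit RABGGTB fell by 0.39 with the knockdown and rose by 0.76 and 0.64 with palmitate in control and knockdown cells. Of 7 tested LXR targets and oxysterol genes 1 rose and 4 fell with the knockdown (14.3% and 57.1%), and the acyltransferase LPCAT3, an LXR target, fell by 0.50 (SE 0.06, adjusted p = 3.92e-07).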

How the data were processed

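Poly(A) RNA of 12 libraries was measured. What the authors deposited is a table of raw counts by gene, in whole numbers with no scaling. The submitters' processing notes list GRCh38 and the tools fastp (0.22.0), HISAT2 (2.1.0) and featureCounts, the last with no version; the annotation release and any strand setting were not given in the sources used. Groups and replicate numbers came from the sample titles. Genes passing edgeR's filterByExpr (14706) were scaled by TMM factors (0.9863 to 1.026) and fitted in 1 model of all 12 libraries and 4 groups by the quasi-likelihood test of edgeR (4.0.16, under R 4.3.3), with Benjamini-Hochberg adjustment over all genes tested and calls at 0.05. All adjusted p-values are from this test unless DESeq2 (1.42.0) or another setting is named. SE is the absolute log2 change divided by the square root of F. CPM were computed from the counts and scaled library sizes. The fit was tested on simulated counts whose spread was taken from these data, for the knockdown without palmitate. Of 100 genes changed by 0.5 on the log2 scale 76% were recovered, and of 100 changed by 1, 90%. Of the unchanged genes 0.14% were called. Changes of such sizes can thus be missed. The simulation changed only these genes among 14465, whereas 62.3% of all genes tested were called in the data. Adjusted p-values depend on how many genes change, so neither the recovery nor the rate of false calls carries over to the data. Exon lengths, positions and overlaps came from GENCODE v29 (GRCh38).

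Alternatives were library sizes alone, size factors by the DESeq2 method within edgeR, DESeq2, no low-count filter, a replicate block, and each of the 12 libraries left out. Values per library are given for up to 3 members per direction and comparison with the largest called change and a mean of at least 5 CPM, and for members called in opposite directions; those of SREBF2, NPC2, SOAT1, ABCA1 and ABCG1 were added after their values were seen. From each other pathway list up to 2 genes with the smallest p were named per comparison. The members and lists were chosen with earlier results of these data known, so they are not independent evidence. Certain genes of the pathway are not reported here.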

Additional observations from a re-analysis of the deposited data

Results flagged for a closer look

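For 10 of the cholesterol genes the response to palmitate differed between control and knockdown cells by the interaction term of the edgeR fit, at an adjusted p under 0.05, which 14.5% of all genes tested also reached. As log2 differences, knockdown cells less control cells, the values in synthesis were 0.35 for HMGCS1, 0.25 for IDI1, 0.35 for FDFT1, 0.24 for LSS, 0.20 for LBR and 0.56 for MSMO1. The difference was 0.61 for the sensing gene INSIG1, and 0.23 and 0.22 for the lysosomal genes NPC1 and NPC2. For the oxysterol receptor gene NR1H2 it was -0.47. In FDFT1 and MSMO1 the palmitate changes of both cell types passed the test with opposite signs, and in the other 8 members 1 of the 2 did.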

How the results depend on the processing

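No member's called change reversed under any alternative, and none of the 145 member values (29 members in 5 comparisons) changed sign with size factors by the DESeq2 method, in DESeq2 or with the replicate block. Signs changed among uncalled values alone, in 6 of 145 with library sizes alone, 1 without the low-count filter and 32 of 1740 with a library left out. Of the 76 calls among members, 73 held in DESeq2, 73 with size factors by the DESeq2 method, 72 with library sizes alone and 73 without the filter. With a library left out 854 of 912 held, 58 were lost and 15 were made. The count of members that rose with palmitate in control cells was 2 in place of 6 with library sizes alone, and 3 to 6 with a library left out. With library sizes alone SCAP, FDPS, EBP and SOAT1 no longer passed there, and the cause was not tested.

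Replicate numbers in the titles showed no strong pairing of the libraries. Deviations of the 18 same-numbered pairs correlated at -0.05 to 0.09, none over 0.1. Of the 12 libraries 7 correlated best with their own number, so this check cannot exclude a weak shared batch. With the replicate number as a block, 13 members rose with palmitate in knockdown cells in place of 11 (ACAT2 and INSIG1 added), 5 in place of 6 rose in control cells (SCAP lost, adjusted p = 0.0509) and 10 in place of 9 interactions were positive (STARD4 added).

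Depth limited ABCG1, ABCA1 and TM7SF2, and the precision is that of 3 libraries a group.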
